A study of Mus musculus with 4 samples.

Results

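Cytochrome P450 enzymes are haem proteins that insert oxygen into foreign compounds, fatty acids and steroids. Those of the endoplasmic reticulum, which include the ones described here, draw electrons from NADPH through the reductase made by Por, whereas mitochondrial P450 enzymes use a ferredoxin. In mouse lung they are concentrated in club cells, the secretory cells of the small airways, where they turn some inhaled or blood-borne chemicals into toxic products, and members are also made in alveolar type II and endothelial cells. The genes described here are 10 of the 17691 named genes of the deposited table: the xenobiotic P450 genes Cyp1a1, Cyp1b1, Cyp2a5, Cyp2b10, Cyp2d22, Cyp2e1, Cyp2f2, Cyp2s1 and Cyp4b1, together with Por. They were taken by symbol, and each symbol matched 1 row. The table holds 73 further P450 genes.

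RNA from lungs of wild-type C57BL/6 mice was sequenced. The mice were 6 to 8 weeks old, were kept free of specific pathogens, and had received bleomycin, a DNA-breaking drug used to injure the lung, or the buffer PBS through the nose, and the labels give 10 days of treatment. There were 2 PBS and 2 bleomycin libraries. The labels state neither the dose nor the sex, and do not say that each library came from its own animal, so p-values measure only the spread between these libraries, which may be technical. Levels are FPKM, fragments counted per length of transcript and scaled to the size of the library, and can thus be compared between genes. Changes are log2 differences of FPKM + 1, bleomycin minus PBS, with their standard error (SE), tested with limma over the 12986 genes whose mean reached 1 FPKM, and called at a Benjamini-Hochberg adjusted p under 0.05.

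The spacing of low FPKM values put the depth of the libraries at an estimated 17000000 to 17800000 fragments. The labelled tissue carried its defining markers, with Sftpc (alveolar type II cells) at 7913 to 12788 FPKM and Ager (alveolar type I cells) at 1883 to 2834 FPKM over the 4 libraries. Sex-linked transcripts separated the groups. The Y-linked gene Eif2s3y measured 26.4 and 28.9 FPKM in the PBS pair, while the bleomycin pair has it listed at 0, so that bleomycin and whatever sets this difference cannot be told apart in any comparison here.

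Of the 9 P450 genes, 5 were called lower with bleomycin, and Por was called lower as well. The 6 called genes were Cyp1a1, Cyp2e1, Cyp2f2, Cyp4b1, Cyp2b10 and Por. None of the 10 was called higher by limma, and 0 were higher at an unadjusted p under 0.05 against 9 lower. Over all tested genes 7.69% were called lower and 8.59% higher. At an unadjusted p under 0.05 by limma, 2349 of all 12986 tested genes were lower and 2231 higher. Both bleomycin libraries lay below both PBS libraries in 9 of the 10 genes, as they did in 35.0% of tested genes. The median change of the 10 was -1.55, beside -0.02 over all tested genes. All 10 passed the filter on low values. Leaving out either PBS library left the spread to the bleomycin pair alone, and no call then held for these or any other tested gene. With each library left out in turn, the change ran from -3.90 to -2.86 for Cyp1a1 and from -2.77 to -1.86 for Cyp2e1. It ran from -2.45 to -1.67 for Cyp2f2, -2.04 to -1.88 for Cyp4b1, -1.69 to -1.51 for Cyp2b10 and -1.23 to -0.87 for Por. In bulk tissue, fewer cells of a type and less RNA per cell cannot be told apart.

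The 250 bases before the RefSeq transcript start (GRCm38.p6) of 5 of the genes are shown, because they pair targets of one regulator (Cyp1a1 and Cyp1b1) and genes of one chromosome 7 cluster (Cyp2b10, Cyp2a5 and Cyp2f2). Capitals mark matches, on either strand, to 5 motifs: GCGTG, the core bound by the aryl hydrocarbon receptor (AhR) with its partner Arnt; the TATA box TATAAA; the forkhead motif TGTTTAC; the C/EBP motif TTNNGCAA; and TTANGTAA, the motif of the PAR bZIP factors. In the order listed, the windows lie at chr9:57697363-57697612 (plus strand), chr17:79715062-79715311 (minus strand), chr7:25897408-25897657, chr7:26835089-26835338 and chr7:27119705-27119954 (all plus strand). The annotated spans of Cyp1a1 and, among the windows not shown, Por begin further upstream than the starts used here.
Cyp1a1: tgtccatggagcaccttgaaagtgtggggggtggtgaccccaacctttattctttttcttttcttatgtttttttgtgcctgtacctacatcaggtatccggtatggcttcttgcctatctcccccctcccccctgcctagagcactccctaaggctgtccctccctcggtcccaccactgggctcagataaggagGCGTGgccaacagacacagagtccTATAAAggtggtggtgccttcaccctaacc
Cyp1b1: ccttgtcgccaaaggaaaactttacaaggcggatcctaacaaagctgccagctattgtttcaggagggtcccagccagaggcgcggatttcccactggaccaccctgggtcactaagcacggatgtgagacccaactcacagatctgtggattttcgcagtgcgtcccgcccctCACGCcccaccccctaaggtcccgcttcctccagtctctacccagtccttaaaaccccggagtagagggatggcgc
Cyp2b10: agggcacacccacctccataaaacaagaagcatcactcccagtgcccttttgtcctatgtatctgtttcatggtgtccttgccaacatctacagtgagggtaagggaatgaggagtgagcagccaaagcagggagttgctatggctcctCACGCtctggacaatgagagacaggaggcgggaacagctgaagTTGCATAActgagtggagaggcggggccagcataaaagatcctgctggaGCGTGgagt
Cyp2a5: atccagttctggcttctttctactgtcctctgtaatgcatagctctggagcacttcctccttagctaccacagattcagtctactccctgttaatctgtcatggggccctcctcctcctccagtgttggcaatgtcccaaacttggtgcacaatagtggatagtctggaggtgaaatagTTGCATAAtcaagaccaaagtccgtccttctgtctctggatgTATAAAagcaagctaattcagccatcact
Cyp2f2: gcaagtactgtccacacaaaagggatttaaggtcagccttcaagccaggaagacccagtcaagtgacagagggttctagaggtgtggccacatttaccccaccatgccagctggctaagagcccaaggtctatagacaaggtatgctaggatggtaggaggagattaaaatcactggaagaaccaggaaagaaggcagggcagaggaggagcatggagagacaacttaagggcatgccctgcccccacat

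GCGTG was present in 4 of the 9 gene windows matched by symbol, those of Cyp1a1, Cyp1b1, Cyp2b10 and Por, and in 28.2% of 32851 windows of the same length. In Cyp1a1 it lay 54 to 50 bases before the start, followed by TATAAA from 30 to 25 bases before it. In Cyp1b1 a match on the opposite strand lay 76 to 72 bases before the start. TATAAA was found in Cyp1a1, Cyp2a5 and Cyp2e1 (3 of 9, against 12.4% of all windows). Cyp2b10 and Cyp2a5 carried the same 8 letters TTGCATAA, an opposite-strand match to TTNNGCAA, at 58 to 51 and 71 to 64 bases before the start (2 of 9, against 9.6%). TGTTTAC and TTANGTAA, which 3.2% and 2.1% of windows hold, were in 0 of the 9. The Cyp2f2, Cyp4b1 and Cyp2s1 windows held none of the 5 motifs. The Por window had 21 CpG dinucleotides, that of Cyp2s1 15 and that of Cyp1b1 12, beside a median of 6 over all windows, whereas the other 6 had 0 to 4. These matches describe letters and not bound sites.

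The club cell enzyme Cyp2f2, which activates naphthalene and is the most abundant member, stood at 1320 and 836 FPKM with PBS and at 330 and 191 FPKM with bleomycin. The groups did not overlap, and replicate 1 was the higher library in each group. Cyp2f2 (gene 13107, chromosome 7, 27119955 to 27133660) fell 4.13-fold, a change of -2.06 ± 0.35 (SE, adjusted p = 0.0254 by limma). Without the filter on low values its adjusted p was 0.0592 by limma, which did not pass. Cyp4b1 (gene 13120, chromosome 4, 115624698 to 115647721), a lung enzyme that hydroxylates fatty acids and activates plant furans, was at 385 and 429 FPKM with PBS and at 99.1 and 109 FPKM with bleomycin. It fell 3.92-fold (-1.96 ± 0.11, adjusted p = 0.00494 by limma), and replicates lay closer together than for Cyp2f2. Cyp2b10 (gene 13088, chromosome 7, 25897658 to 25926624), the phenobarbital-inducible P450 of mouse liver, measured 235 and 266 FPKM in the PBS libraries and 86.9 and 76.8 FPKM in the bleomycin libraries. It fell 3.06-fold (-1.60 ± 0.11, adjusted p = 0.00616 by limma).

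These 3 genes made up 92.1% of the summed FPKM of the 9 P450 genes in each PBS library and 89.3% and 89.5% with bleomycin. The summed level itself was 2107 and 1663 FPKM in the PBS libraries, against 578 and 421 FPKM in the bleomycin libraries. Cyp2f2 alone accounted for 62.6% and 50.3% of it with PBS and 57.1% and 45.4% with bleomycin, so its share differed more between the replicates of each group than between the same-numbered libraries of the groups.

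**Figure D1:**
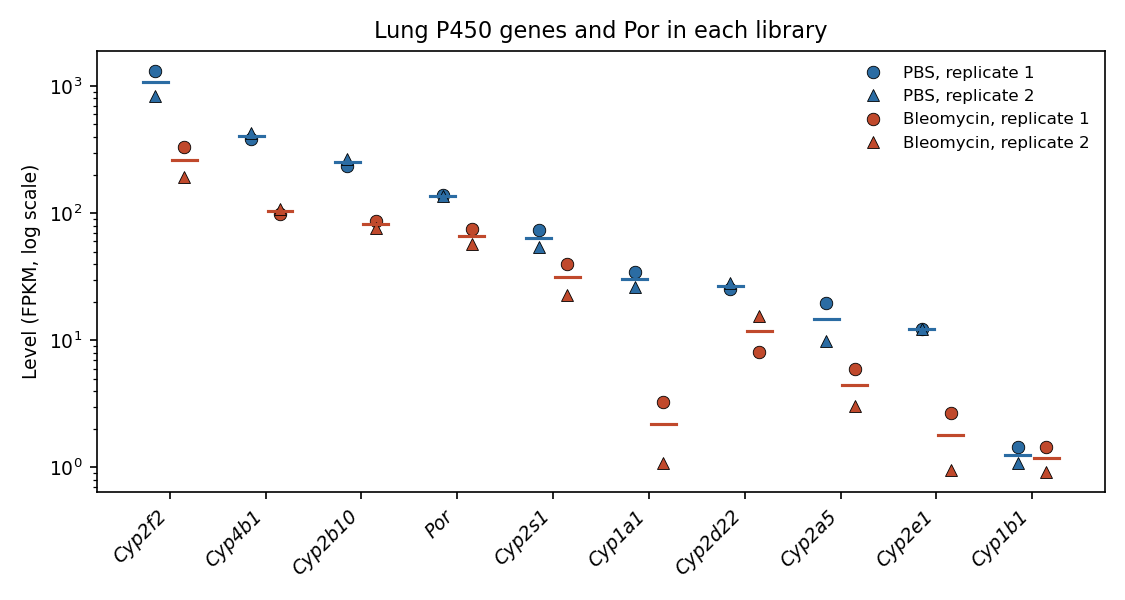
Level in FPKM (log axis) of the 9 P450 genes and Por, ordered by their PBS mean, in each of the 4 libraries (blue PBS, red bleomycin, circles replicate 1, triangles replicate 2, bars group means, n = 2). The bleomycin points lie below the PBS points for 9 genes and overlap them for Cyp1b1.

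Cyp1a1 and Cyp1b1 both encode enzymes that oxidize polycyclic aromatic hydrocarbons, and both are classical AhR targets. Cyp1a1 (gene 13076, chromosome 9, 57687928 to 57703824) was at 34.4 and 26.3 FPKM with PBS and at 3.28 and 1.08 FPKM with bleomycin. Its log2 change of -3.38 ± 0.37 (adjusted p = 0.0114 by limma) was the fifth lowest of all 12986 tested genes. The bleomycin libraries differed 3.04-fold from each other, at an estimated 150 and 51 fragments. Cyp1b1 (gene 13078, chromosome 17, 79706940 to 79715061), which is made largely by mesenchymal cells, was at 1.44 and 1.08 FPKM with PBS and at 1.46 and 0.92 FPKM with bleomycin. Its groups overlapped, and the change was -0.05 ± 0.19 (adjusted p = 0.867 by limma), with estimates of 84 to 129 fragments behind each value. Whether the 2 changes differ was not tested as such.

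Cyp2e1 (gene 13106, chromosome 7, 140763819 to 140774990), which oxidizes ethanol and other small molecules, stood at 12.2 and 12.4 FPKM with PBS and at 2.66 and 0.95 FPKM with bleomycin. It fell 6.80-fold by the ratio of mean FPKM. The tested change, on FPKM + 1, was -2.31 ± 0.31 (adjusted p = 0.0166 by limma), smaller because the added 1 weighs on low values. The lowest value rests on about 31 fragments. Hepatocyte transcripts separated the same libraries: of 12 tested hepatocyte genes 11 were called lower, 0 higher, and their summed level over 15 genes was 113.5 and 112 FPKM in the PBS libraries, against 13.5 and 11.3 FPKM in the bleomycin libraries. Alb (albumin) was at 14.4 and 14.2 FPKM with PBS and at 1.01 and 0.66 FPKM with bleomycin. The FPKM of Cyp2e1 was thus 0.84 and 0.87 times that of Alb with PBS and 2.63 and 1.44 times with bleomycin, higher without overlap. The ratio of Cyp1a1 to Alb was 2.38 and 1.85 with PBS and 3.25 and 1.64 with bleomycin, with overlapping groups. Cyp2f2 was at 91.5 and 58.8 times Alb with PBS and at 327 and 290 times with bleomycin. The part of hepatocyte RNA in the Cyp2e1 and Cyp1a1 results was not tested.

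Cyp2a5, Cyp2d22 and Cyp2s1 were lower in both bleomycin libraries without passing the test. Cyp2a5 (gene 13087, chromosome 7, 26835339 to 26843264), the coumarin and nicotine hydroxylase, was at 19.7 and 9.81 FPKM with PBS and at 5.93 and 3.04 FPKM with bleomycin (-1.50 ± 0.40, adjusted p = 0.0705 by limma). Its replicates differed 2.01-fold and 1.95-fold within the groups. Cyp2a4, a near-identical gene of the same chromosome 7 cluster whose fragments the authors' counting could have split with Cyp2a5, was at 0.05 to 0.45 FPKM. Cyp2d22 (gene 56448, chromosome 15, 82370527 to 82380260) was at 25.4 and 28.3 FPKM with PBS and at 8.15 and 15.5 FPKM with bleomycin (-1.18 ± 0.29, adjusted p = 0.0577 by limma). Here, as for Cyp4b1, bleomycin replicate 2 was the higher one, while replicate 1 was higher for the other 8 genes. Cyp2s1 (gene 74134, chromosome 7, 25802469 to 25816525), an epithelial P450 of extrahepatic tissues, was at 73.4 and 54.1 FPKM with PBS and at 40.2 and 22.9 FPKM with bleomycin (-1.03 ± 0.30, adjusted p = 0.0842 by limma).

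Por (gene 18984, chromosome 5, 135670040 to 135735326), the electron donor of all microsomal P450 enzymes, was at 139 and 135 FPKM with PBS and at 74.8 and 57.8 FPKM with bleomycin. It fell 2.07-fold (-1.05 ± 0.14, adjusted p = 0.0168 by limma). For every 100 FPKM of Por, the 9 P450 genes together had 1517 and 1228 FPKM in the PBS libraries, against 772 and 730 FPKM in the bleomycin libraries. The sum was therefore lower relative to the reductase too (log2 difference -0.86, pooled SD 0.16, exact two-sided permutation p = 0.333, the smallest that 2 libraries against 2 allow). Taken singly, Cyp1a1, Cyp2b10, Cyp2e1, Cyp2f2 and Cyp4b1 were lower relative to Por without overlap. Cyp2a5, Cyp2d22 and Cyp2s1 overlapped between groups (-0.65, -0.19 and 0.01), and Cyp1b1 was higher without overlap (0.96).

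**Figure D2:**
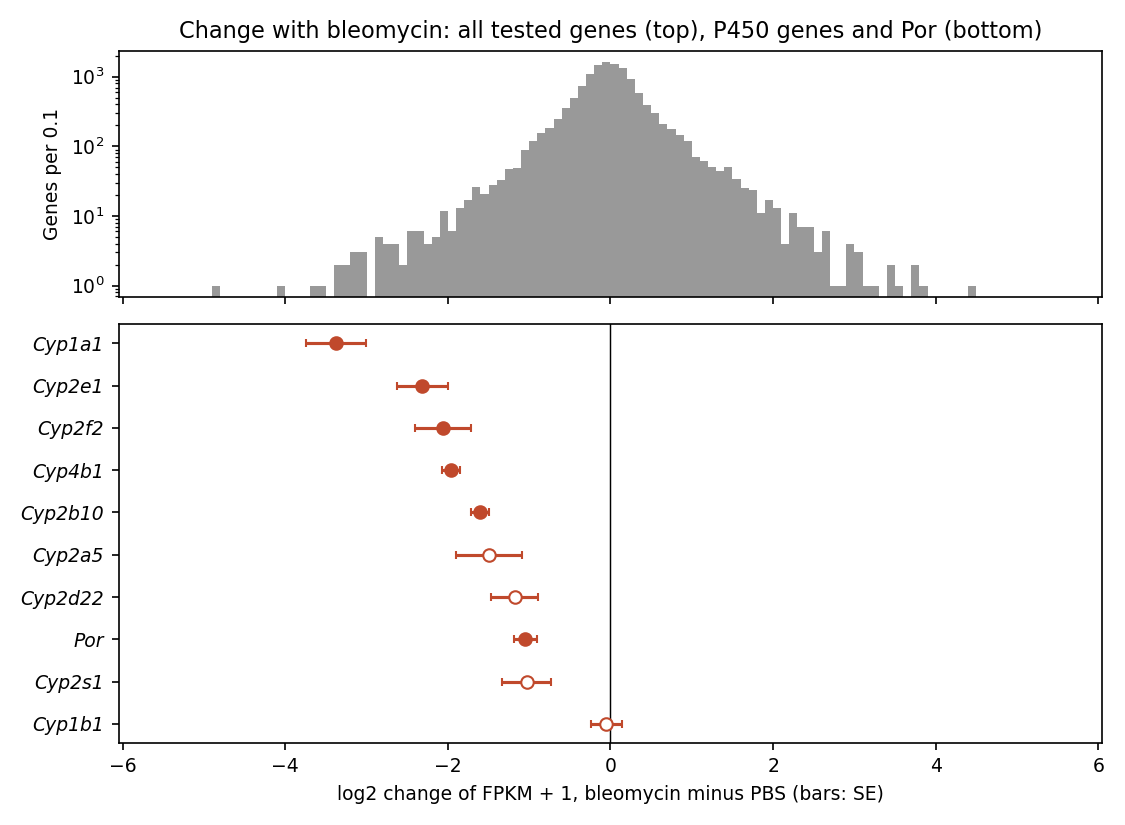
Top, number of the 12986 tested genes per 0.1 of log2 change (log axis). Bottom, the change of each P450 gene and of Por with its SE, filled where limma called it (6 genes); Cyp1a1 lies at -3.38 and Cyp1b1 at -0.05.

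In order of level, Cyp2f2, Cyp4b1, Cyp2b10, Por and Cyp2s1 followed each other in both groups, and no neighbours among these 5 overlapped in either group. Below them the order changed. With PBS came Cyp1a1, Cyp2d22, Cyp2a5, Cyp2e1 and Cyp1b1, with overlap between Cyp1a1 and Cyp2d22 and between Cyp2a5 and Cyp2e1. With bleomycin Cyp1a1 stood behind Cyp2d22 and Cyp2a5, and the values of Cyp2a5, Cyp1a1, Cyp2e1 and Cyp1b1 each overlapped those of the next in line.

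Of 12 tested club cell genes 6 were called lower and 1 higher, 5 did not pass, and the median change was -1.21. Scgb1a1, the main secretory protein of club cells, was at 54415 and 41165 FPKM with PBS and at 18857 and 19751 FPKM with bleomycin, a change that did not pass (-1.29 ± 0.48, adjusted p = 0.131 by limma). Scgb3a2, a further secretoglobin, fell from 861 and 694 FPKM to 297 and 164 FPKM (-1.81 ± 0.31, adjusted p = 0.0264 by limma). The club cell genes Cbr2, Lypd2 and Pon1 fell by 2.51, 2.33 and 2.17 on the log2 scale, while Kcnk1, also on the list, rose by 0.79. Among 12 ciliated cell genes 1 was called lower, Tppp3, near the share over all tested genes. All 12 were lower in both bleomycin libraries, as were 35.0% of tested genes. Endothelial genes were called lower in 6 of 12, whereas of 12 alveolar type II genes 2 were called higher and 0 lower. Of 10 alveolar type I genes 2 were called higher and 3 lower. Resident fibroblast genes were called higher in 0 and lower in 4 of 10, and macrophage genes in 7 and 0 of 12. For comparison, 8.59% of all tested genes were called higher and 7.69% lower. The part of these cell types in the P450 results was not tested.

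Ratios within a library do not depend on its total. Per 100 FPKM of Scgb1a1, Cyp2f2 had 2.43 and 2.03 FPKM in the PBS libraries, against 1.75 and 0.97 FPKM in the bleomycin libraries, lower without overlap. Per 100 FPKM of Scgb3a2 the difference was smaller, at 153 and 120 FPKM against 111 and 117 FPKM. Relative to Scgb1a1, Cyp1a1, Cyp2e1, Cyp2f2 and Cyp4b1 were lower in both bleomycin libraries, with log2 differences of -2.70, -1.65, -0.77 and -0.68. Cyp1b1 was higher relative to Scgb1a1 (1.19), and the other 5 genes overlapped between groups, Cyp2b10 at -0.32 and Por at 0.23. Leaving out each library in turn kept these 5 directions but moved the values, from -3.54 to -1.87 for Cyp1a1, -2.43 to -0.88 for Cyp2e1, -1.20 to -0.34 for Cyp2f2 and 0.82 to 1.56 for Cyp1b1, each with its ends set by leaving out bleomycin replicate 1 or 2, and from -0.95 (without PBS replicate 1) to -0.40 (without PBS replicate 2) for Cyp4b1. For the 5 ratios without overlap the exact two-sided permutation p was 0.333, or 0.667 adjusted over 10 ratios, so that none can pass with 2 libraries per group. Set against Scgb3a2, Cyp2b10 and Cyp2a5 turned to 0.20 and 0.10, Cyp4b1 overlapped between groups, and Por and Cyp2s1 were higher without overlap (0.75 and 0.76). The 9 P450 genes summed were lower without overlap relative to Scgb1a1 (-0.63), whereas relative to Scgb3a2 their groups overlapped (-0.11).

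**Figure D3:**
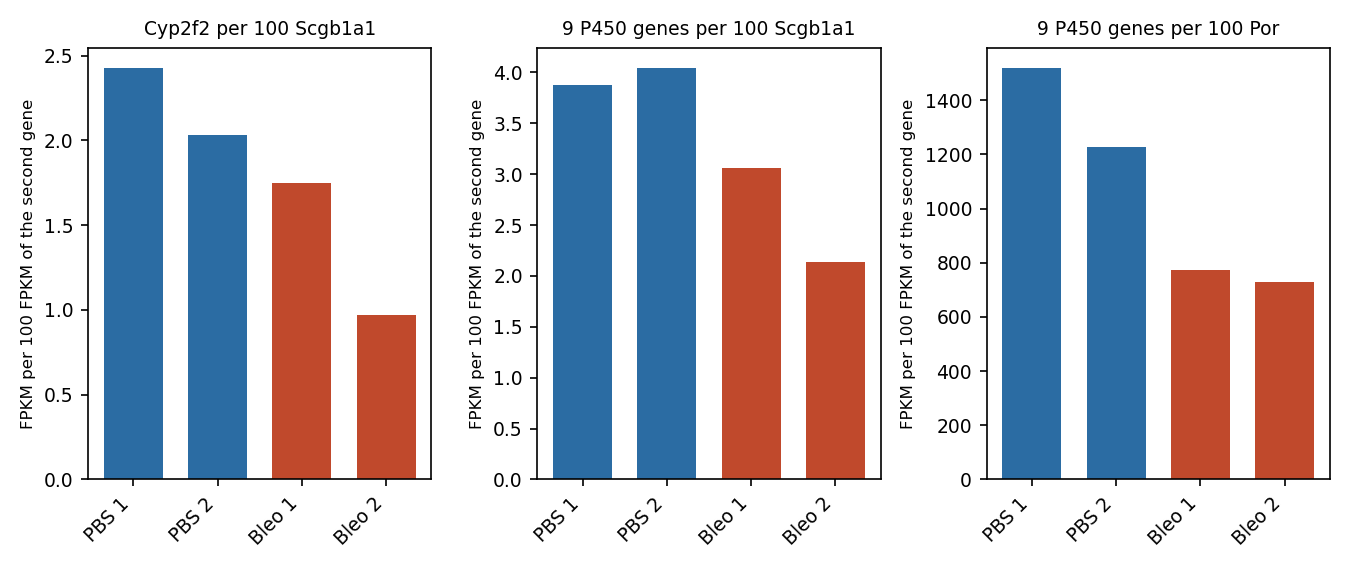
Ratios within each library, as FPKM per 100 FPKM of the second gene (bars start at 0; blue PBS, red bleomycin; 1 bar per library). Cyp2f2 per 100 Scgb1a1 runs from 2.43 to 0.97, and the 9 P450 genes per 100 Por from 1517 to 730.

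Among members, 5 lie on chromosome 7, and 4 of these share a cluster of 12 P450 genes spanning 1331 kb from Cyp2s1 to Cyp2f2 (25802469 to 27133660, GRCm38.p6). Its ends were set by these 2 members, and P450 genes beyond them were not counted. The remaining 8 genes of the cluster, among them Cyp2b9, Cyp2b13, Cyp2b19 and Cyp2a12, reached at most 0.46 FPKM in any library and fell below the filter. Cyp2b10 and Cyp2f2, 2 of the 4 tested cluster genes, were called lower.

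**Figure D4:**
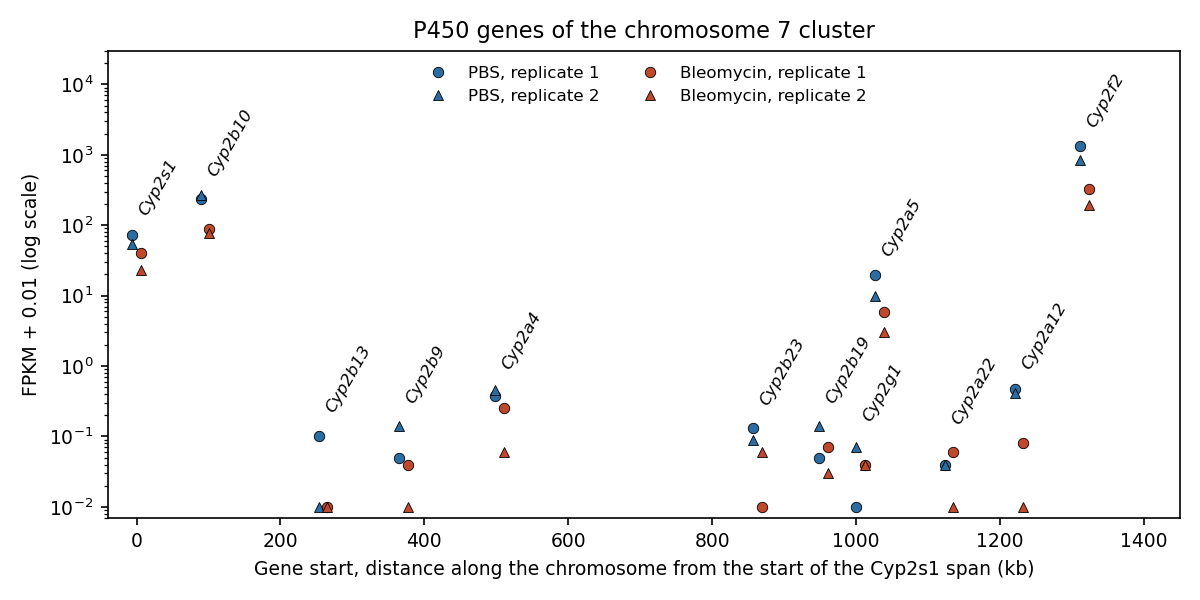
FPKM + 0.01 (log axis) of the 12 P450 genes of the chromosome 7 cluster by the distance of each gene's annotated start from that of Cyp2s1, in kb (blue PBS, red bleomycin, circles replicate 1, triangles replicate 2). Cyp2s1, Cyp2b10, Cyp2a5 and Cyp2f2 stand above 1 FPKM in all 4 libraries, and the other 8 stay at or below 0.46 FPKM.

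Of the 73 other P450 genes 16 reached the test, 5 were called lower, 2 higher and 9 did not pass, with a median change of -0.22. The shares over all tested genes were 7.69% lower and 8.59% higher. In families 1 to 4, which act mostly on foreign compounds and fatty acids, 3 of 10 tested genes were called lower and 1 higher. Cyp3a13 fell from 2.44 and 2.72 FPKM to 0.6 and 0.76 FPKM (-1.09 ± 0.14), and Cyp2j9 (-0.75 ± 0.16) and Cyp4f15 (-0.72 ± 0.14) fell as well. Their calls held in 8 and 9 of 10 alternative settings, and the direction held in all of them. Cyp4f39, which hydroxylates very long fatty acids for the skin barrier, went from 1.44 and 1 FPKM to 3.9 and 9.39 FPKM (1.69 ± 0.38, adjusted p = 0.0479 by limma). That call held in 4 of 10 alternative settings, with adjusted p from 0.0369 to 0.0917.

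In families 5 and above, which act mostly on sterols, bile acids, retinoids and vitamin D, 2 of 6 tested genes were called lower and 1 higher. Cyp27a1, the mitochondrial sterol 27-hydroxylase, fell from 18.9 and 21.2 FPKM to 8.42 and 5.27 FPKM (-1.45 ± 0.21, adjusted p = 0.0195 by limma). Cyp39a1, an oxysterol hydroxylase, fell from 10.2 and 9.70 FPKM to 5.16 and 5.79 FPKM (-0.76 ± 0.10). Cyp7b1, which hydroxylates oxysterols and steroids, rose from 2.53 and 2.96 FPKM to 11.9 and 6.53 FPKM (1.40 ± 0.28, adjusted p = 0.0356 by limma). That call held in 10 of 11 alternative settings, with adjusted p up to 0.0745.

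**Figure D5:**
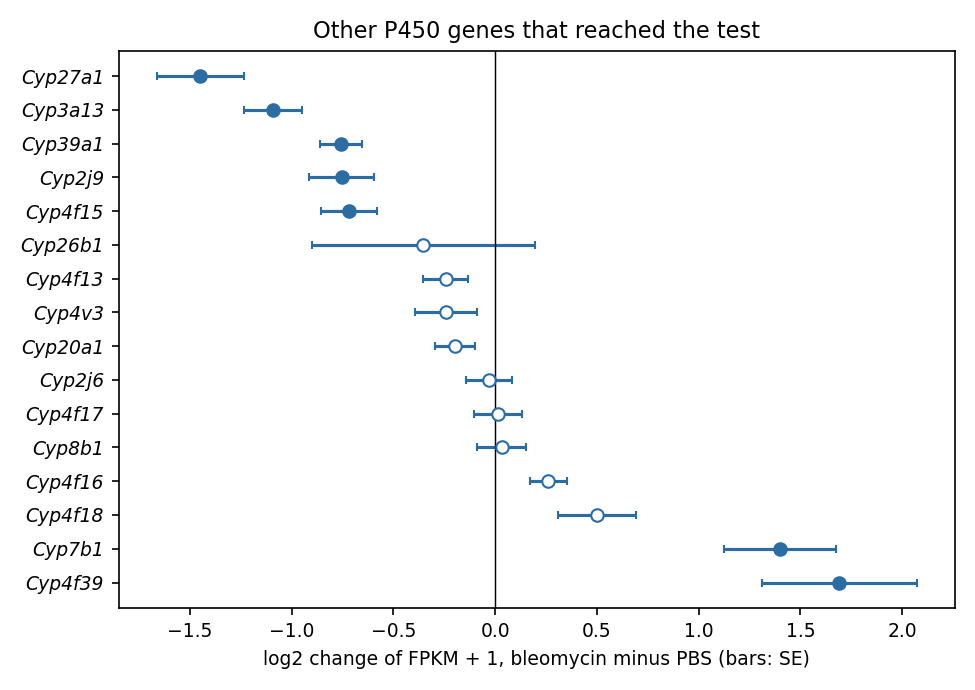
Change (log2 of FPKM + 1, bleomycin minus PBS) with SE of the 16 other P450 genes that reached the test; filled points were called by limma (5 lower, 2 higher). Cyp27a1 lies lowest at -1.45 and Cyp4f39 highest at 1.69.

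Partners of the P450 system were called at shares near those of all tested genes. Of 19 genes of electron supply, haem synthesis and haem breakdown, 2 were called lower and 1 higher, with a median change of -0.04. Over all tested genes, 7.69% were called lower and 8.59% higher. Cyb5a, the cytochrome b5 that passes a further electron to some P450 enzymes, fell from 297 and 298 FPKM to 194 and 194 FPKM (-0.62 ± 0.09, adjusted p = 0.0177 by limma). Pgrmc1, a haem-binding partner of P450 enzymes, fell from 140 and 142 FPKM to 85.4 and 92.9 FPKM (-0.65 ± 0.09, adjusted p = 0.0163 by limma). Blvra, biliverdin reductase, rose by 0.35 ± 0.08, a call at an adjusted p of 0.0499 that held in 5 of 11 alternative settings.

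The AhR list, members apart, held 1 called gene among 10 tested, near the 7.69% of all tested genes that were called lower. Aldh3a1, an aldehyde dehydrogenase, fell from 7.76 and 6.39 FPKM to 3.14 and 1.86 FPKM (-1.23 ± 0.22, adjusted p = 0.0276 by limma). The receptor gene Ahr was at 15.5 and 13.9 FPKM with PBS and at 15.8 and 11.6 FPKM with bleomycin (-0.11 ± 0.16, adjusted p = 0.662 by limma). Cyp1a2, the hepatic neighbour of Cyp1a1, was at 0.86 and 0.85 FPKM with PBS and at 0.03 in both bleomycin libraries, below the filter. Hsp90ab1 and Ptges3, chaperones of the receptor, had changes of -0.11 ± 0.18 and -0.01 ± 0.12.

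Among 11 tested nuclear receptors and PAR bZIP regulators 3 were called lower and 2 higher, beside 7.69% and 8.59% of all tested genes. The PAR bZIP factors, clock-controlled activators of Por and several P450 genes in liver, were lower: Tef fell from 169 and 174 FPKM to 67.2 and 49.5 FPKM (-1.56 ± 0.16) and Hlf from 19.3 and 17.3 FPKM to 5.79 and 3.25 FPKM (-1.84 ± 0.24). Dbp, the third of them, was at 117 and 106 FPKM with PBS and at 37.2 and 3.33 FPKM with bleomycin and did not pass (adjusted p = 0.104 by limma). Nfil3, a repressor that binds the same sites, rose from 3.05 and 3.31 FPKM to 8.86 and 11.7 FPKM (1.42 ± 0.15). The glucocorticoid receptor gene Nr3c1 fell from 31.9 and 31.2 FPKM to 23.1 and 19.8 FPKM. Nr1i3 (CAR) and Nr1i2 (PXR), the xenobiotic receptors that drive Cyp2b10 and Cyp3a genes in liver, were at most at 0.33 FPKM in any library. Their part, and that of the PAR bZIP genes, in the P450 results was not tested.

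Enzymes that act beside or after P450s were lower in part. Of 18 tested genes 9 were called lower and 0 higher by limma (13 and 0 at an unadjusted p under 0.05), with a median change of -0.90. Of all 12986 tested genes, 2349 were lower and 2231 higher at that unadjusted level. The glutathione transferase gene Gsta3 changed by -2.60 ± 0.12, Aox3 (aldehyde oxidase) by -1.86 ± 0.21 and the flavin monooxygenase genes Fmo2 and Fmo1 by -1.80 ± 0.27 and -1.70 ± 0.09.

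The profiles most like those of the main members were sought among all tested genes, by the Euclidean distance between log2(FPKM + 1) values over the 4 libraries, centred on each gene's mean. Nearest to Cyp2f2 were Fam13a, Ackr4 and Scgb3a2, at distances of 0.26, 0.27 and 0.36. Nearest to Cyp4b1 were Serpina3k, Mup19 and Fibin (0.14, 0.18 and 0.19), the first 2 of which are abundant in liver. Serpina3k and Mup19 were far lower in level than Cyp4b1, so the 1 added to FPKM shrank their changes more. Serpina3k was at 6.58 and 7.34 FPKM with PBS and at 0.96 and 0.91 FPKM with bleomycin. Mup19 was at 5.3 and 7.27 FPKM, against 0.78 and 0.84 FPKM. The same holds for Ackr4 beside Cyp2f2, at 6.7 and 5.29 FPKM, against 1.17 and 0.19 FPKM. Nearest to Cyp1a1 were Colq, Fabp1 and Inmt (0.36, 0.44 and 0.52). With 4 libraries such likeness is a description only.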

How the data were processed

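Per the file headers, the authors deposited a single table with an FPKM value for each gene and library, given to 2 decimals. The submitters' processing notes name Bowtie2, HISAT, mm10 and GRCm38, without roles or versions; the sources used here do not give the quantification tool. FPKM divides by each library's total, so a very abundant gene weighs on all others: Scgb1a1 held 11.2% and 8.35% of the sum in the PBS libraries, and 3.98% and 4.28% in the bleomycin libraries. An unnamed row (at most 0.000896% of a library's sum) was left out and 27 date-like names were restored by RefSeq accession. Coordinates and promoter windows are RefSeq's, GRCm38.p6; 16961 symbols matched.

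Log2(FPKM + 1) values were tested with limma 3.58.1 in R 4.3.3 (eBayes with trend, two-sided), tested on simulated data. Depth was fitted to FPKM of 0.03 to 0.3 in genes of 300 to 1000 bases; 75.0% to 78.1% of these were within 0.15 of whole fragments, against a median of 22.3% to 24.0% over all depths tried. Replicates correlated across genes at 0.995 (PBS) and 0.977 (bleomycin), against 0.936 to 0.950 between groups. The design text speaks of 3 replicates and a protocol of 4 groups; 2 groups of 2 libraries were used. Members and lists were chosen with earlier results of these data known. Named genes are all members; in each list, up to 4 called genes with the largest changes or, with fewer than 2 calls, up to 2 with the highest means; the 3 nearest profiles; and Scgb1a1, Scgb3a2, Alb, Eif2s3y, Cyp2a4 and Cyp1a2. Further genes (Sftpc, Ager, Kcnk1, Aldh3a1, Ahr, Dbp, Nr1i2, Nr1i3, the silent cluster genes, Cyp3a11, Hmox1, Alas1 and Cyp26b1) were named after their values were seen. Tables and figures used Python 3.11.15, numpy 2.4.6, pandas 2.3.3, scipy 1.17.1 and matplotlib 3.10.9.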

Additional observations from a re-analysis of the deposited data

How the results depend on the processing

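Over 11 settings that kept all 4 libraries (pseudocounts 0.1 and 0.5, no filter, a filter at 5 FPKM, which leaves out Cyp1b1, quantile, TPM and upper quartile scaling, TPM without Scgb1a1, eBayes without trend, robust eBayes, a replicate block), the 10 members kept their direction and their side of the threshold in 105 of 109 fits. The exceptions were Cyp2f2 without a filter and Cyp2a5, Cyp2d22 and Cyp2s1, which passed with the replicate block (adjusted p = 0.0174, 0.0384 and 0.0251 by limma; 9 members called). Nothing in the labels ties same-numbered libraries together beyond the number, and their deviations correlated at 0.02 over all tested genes, although 8 of the 10 members had replicate differences of the same direction in both groups. Calls of Cbr2, Scgb3a2, Tppp3, Nr3c1 and Cyp7b1 each held in 10 of 11 settings. The cause of these moves was not tested.

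Leaving out each library in turn gave 0 to 2402 genes higher, 0 to 3144 lower and 0 to 9 members lower by limma. The zeros came without a PBS library, where the spread came from the bleomycin pair alone. The ranges were 0 to 3 higher and 0 to 7 lower for other P450 genes, 0 to 6 and 0 to 7 for electron supply and haem, 0 to 1 and 0 to 4 for the AhR list, 0 to 2 and 0 to 6 for the regulators, and 0 to 13 lower for conjugation. Cyp1b1 ranged from -0.23 to 0.13, turning to 0.06 without PBS replicate 1 and 0.13 without bleomycin replicate 2. Relative to Scgb1a1, where leaving out libraries was added after seeing the data, Cyp2a5 ranged from -0.93 to 0.10, Cyp2d22 from -0.39 to 0.47 (-0.24 without PBS replicate 1) and Cyp2s1 from -0.20 to 0.68. Relative to Scgb3a2, Cyp2a5 turned to 0.10 and Cyp2b10 to 0.20.

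Other P450 genes numbered 0 higher and 14 lower without a filter (73 tested), 1 and 2 with the filter at 5 FPKM (8 tested), 1 higher with quantile or upper quartile scaling, eBayes without trend or robust eBayes, and 1 higher and 3 lower with the replicate block. Of electron supply and haem genes 0 were higher with either pseudocount, no filter, TPM without Scgb1a1, no trend or the block and 2 with TPM; 4 were lower with the 5 FPKM filter, quantile, upper quartile and TPM without Scgb1a1. AhR genes called lower numbered 0 with the 5 FPKM filter (2 at an unadjusted p under 0.05) and 2 with the block. Regulators called higher numbered 1 without a filter and 1 with the block. At 31 and 51 fragments, the lowest Cyp2e1 and Cyp1a1 values are the least precise.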

Other observations

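The P450 genes best known from liver, Cyp1a2 and the Cyp2c, Cyp2d and Cyp3a genes besides Cyp2d22, were grouped after their values were seen. These 27 genes summed to 11.8 and 11.9 FPKM in the PBS libraries, against 1.89 and 1.6 FPKM in the bleomycin libraries. Of these, 19 were lower in both bleomycin libraries, and 1 (Cyp3a13) reached the test. The share among tested genes was 35.0%, but it leaves out genes below the filter, where the rest of the 27 lie. Values of the 27 were low, with 2.72 FPKM the highest in any library. Cyp3a11 was at 1.02 and 1.01 FPKM with PBS and at 0.04 and 0.05 FPKM with bleomycin. Albumin and other hepatocyte transcripts moved with them, and their part was not tested.

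Further genes around the P450 system did not pass the test. Hmox1, which breaks down haem, was at 20.4 and 18.2 FPKM with PBS and at 48.9 and 233 FPKM with bleomycin (adjusted p = 0.0897 by limma). Cyp26b1, which degrades retinoic acid, was at 2.31 and 7.63 FPKM with PBS and at 2.05 and 4.74 FPKM with bleomycin (adjusted p = 0.681 by limma). Alas1, which starts haem synthesis, was at 148 and 107 FPKM with PBS and at 96.8 and 69.3 FPKM with bleomycin (adjusted p = 0.132 by limma).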
